A study of Carica papaya with 55 samples.

Results

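CpXY17 to CpXY32 are 16 of the 69 genes for which the deposited tables of papaya (Carica papaya) list a copy on the X chromosome and a copy on the Y. They were chosen by name alone: every pair called CpXY with a number from 17 to 32, without names that carry a P prefix. CpXY19 has 2 X copies, CpXY19a_X and CpXY19b_X, so the pairs hold 33 features (17 on the X, 16 on the Y) of the 193 measured. Copies on the X end in _X, and copies on the Y end in _MSY, for the male-specific region of the Y.

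Papaya has separate male and female plants in varieties such as 'AU9', with males XY and females XX. The male-specific region of the Y does not recombine with the X, and genes kept on both chromosomes since recombination stopped form X and Y pairs whose copies can drift apart in sequence and in expression. A male flower makes stamens, which bear the pollen, while its pistil stops developing and stays as a pistillode. A female flower makes a working pistil with ovules. No function is attached to the CpXY names in the sources used here, so the pairs are described by position, by copy and by where they were expressed.

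RNA was sequenced from 'AU9' flowers throughout, in 34 male libraries of 12 groups and 21 female libraries of 7 groups. Whole buds under 1 mm (S0) were taken from males and from females. Stamens and pistillodes of males and pistils of females were taken at S1 (flower buds of 1 to 1.5 mm), S2 (2 to 4.5 mm), S3 (4.5 to 6.5 mm), S4 (7 to 12 mm) and S5 (15 to 20 mm), and pollen of males and ovules of females at S5. Each group had 3 libraries, except the S2 and S3 pistillodes with 2 each. Whether replicates are separate plants is not in the labels, and the p-values therefore cover only the spread among these libraries, which may be technical.

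Totals over the sex-linked features were 21475 to 106846 counts per library (median 64618), with 27741 to 28555 in pollen, and the members took 8.08 to 15.1% of them in male and 12.1 to 15.3% in female libraries. These totals are not sequencing depth, and levels are CPM, counts relative to the scaled sex-linked total of the library. CpY19_MSY, a Y feature with no X copy, had at least 148 counts in every male and at most 1 in any female library, which fits the labelled sexes; organ labels were not checked against marker genes, which the tables do not name. Of the 33 members, 29 passed the filter on low counts and were tested. Both copies of CpXY22 (8 counts on the X and 6 on the Y in all 55 libraries) and of CpXY30 (51 on the X and 65 on the Y) did not pass.

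The copies stand in nearly the same order on both chromosomes from CpXY17 to CpXY28, and the order breaks in the last 4 pairs. The X copies lie from 4115164 to 4863745 on the X, a span of 749 kb, and the Y copies from 4563067 to 6998579 on the Y, a span of 2436 kb. These are the coordinates of the deposited tables, whose genome build none of the sources used here names. CpXY32_MSY lies between CpXY20_MSY and CpXY21_MSY, whereas CpXY32_X is the last of the X copies. A stretch of 1813 kb separates CpXY28_MSY from CpXY31_MSY, which is followed by CpXY29_MSY and CpXY30_MSY, while the widest gap between X copies is 123 kb. Copies of 4 pairs (CpXY19, CpXY20, CpXY29 and CpXY30) are annotated on opposite strands.

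**Figure D1:**
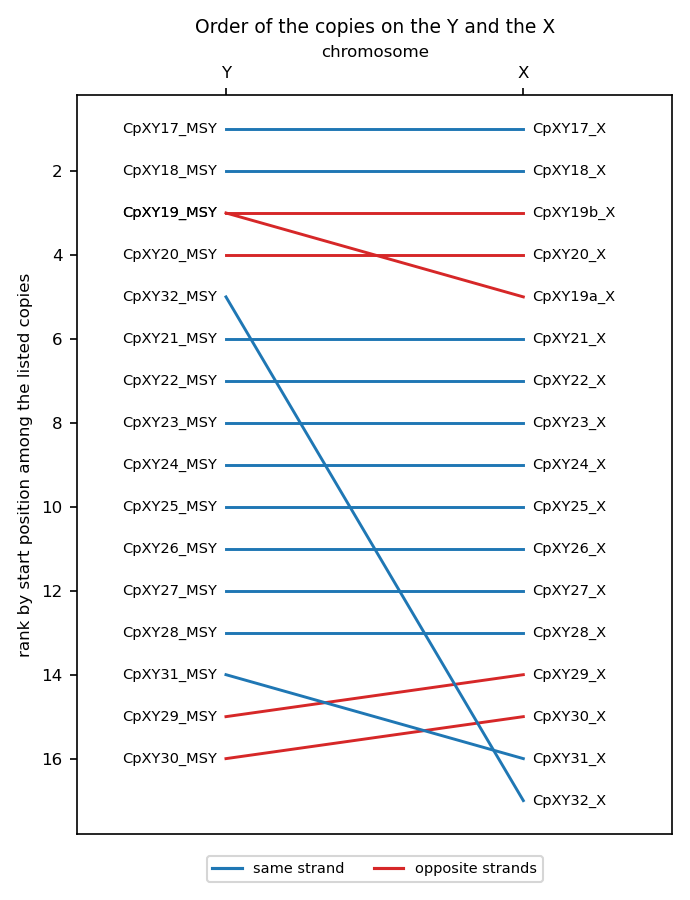
Rank of each copy by its start position, on the Y (left) and on the X (right), with lines that join the copies of a pair. Lines are level for most pairs from CpXY17 to CpXY28, and CpXY32 runs from rank 5 on the Y to rank 17 on the X; red lines mark the 4 pairs annotated on opposite strands.

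Exon length runs from 157 bases (CpXY22, a single exon) to 6610 bases (CpXY20_X, 11 exons). In 9 pairs the copies have the same number of exons and of exon bases, among them CpXY17 (7 exons, 1347 bases), CpXY21 (13 exons, 1186 bases) and CpXY24 (10 exons, 1779 bases). In the other 7 they differ, with 819 bases in CpXY19a_X, 736 in CpXY19b_X and 795 in CpXY19_MSY. CpXY19a_X lies within the span of CpXY20_X, and CpXY30 lies within the span of CpXY29 on both chromosomes, without shared exon bases.

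How far the counts of a pair can be assigned to the X or the Y was read from females, which carry no Y. A read that maps to several places was counted at each, so a female count at a Y copy comes from some other sequence. The Y copy took 1.13% of the female counts of CpXY29 (302 counts, beside 26318 at the X copy; 95% exact binomial interval 1.01 to 1.27%) and 0.468% of those of CpXY31 (interval 0.0568 to 1.68%), and these pairs are called separate (under 5%). In CpXY28 (9.33%), CpXY32 (11.3%), CpXY21 (13.7%), CpXY26 (16.4%) and CpXY17 (21.3%) the share was between 5 and 25%, here called partly shared. In CpXY27 (27.4%), CpXY20 (30.4%), CpXY25 (32.7%), CpXY19 (42.5%), CpXY24 (43.3%) and CpXY23 (47.6%) it was over 25%, here called shared. CpXY18, CpXY22 and CpXY30 had under 100 female counts and were not classed. CpXY30 had 0 of 29 female counts at its Y copy (95% exact binomial interval 0 to 11.9%). Such intervals cover counting error only. Among the 53 other pairs, 19 were separate, 5 partly shared, 20 shared and 9 not classed.

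In males the Y copy took about as many counts as the X copy in most pairs. It held 49.0% of male counts in CpXY17, 46.9% in CpXY20, 50.4% in CpXY25, 50.4% in CpXY26, 49.1% in CpXY27, 49.7% in CpXY28 and 48.7% in CpXY29. Of these pairs only CpXY29 is separate. In the others, reads counted at both copies bring the copies toward equal counts, so the share does not measure the expression of each. CpXY19, with 1 Y copy and 2 X copies, stood at 34.4% in males, against 42.5% in females, which carry no Y. Per exon base, the log2 ratio of Y to X counts over the male libraries with at least 20 counts of the pair was 0.01 for CpXY19, -0.11 for CpXY29, -0.17 for CpXY20 and -0.47 for CpXY32. Apart from CpXY29, these ratios also hold reads counted at several copies. The other separate pair, CpXY31, had 67.5% of its male counts at the Y copy (324 counts, beside 156 at the X copy). Its log2 ratio per exon base was 1.13 ± 1.32 (SD, n = 8 male libraries), with values from -1.04 to 2.92.

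CpXY24 was the pair with the most Y counts for its X counts among those with 20 counts in at least 30 male libraries. Its Y copy took 74.8% of male counts, and its log2 ratio of Y to X per exon base was 1.47 ± 0.41 (SD, n = 31 male libraries), with a lowest value of 0.58. Male buds held 79.1 ± 1.20% of the pair's counts at the Y copy, against 43.8 ± 2.39% in female buds (SD, n = 3 each). All male libraries with 20 counts lay at 60.0% or more, and all female libraries at 47.8% or less. As a shared pair it had counts at CpXY24_MSY in every female library, so its share of counts does not separate X from Y reads.

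**Figure D2:**
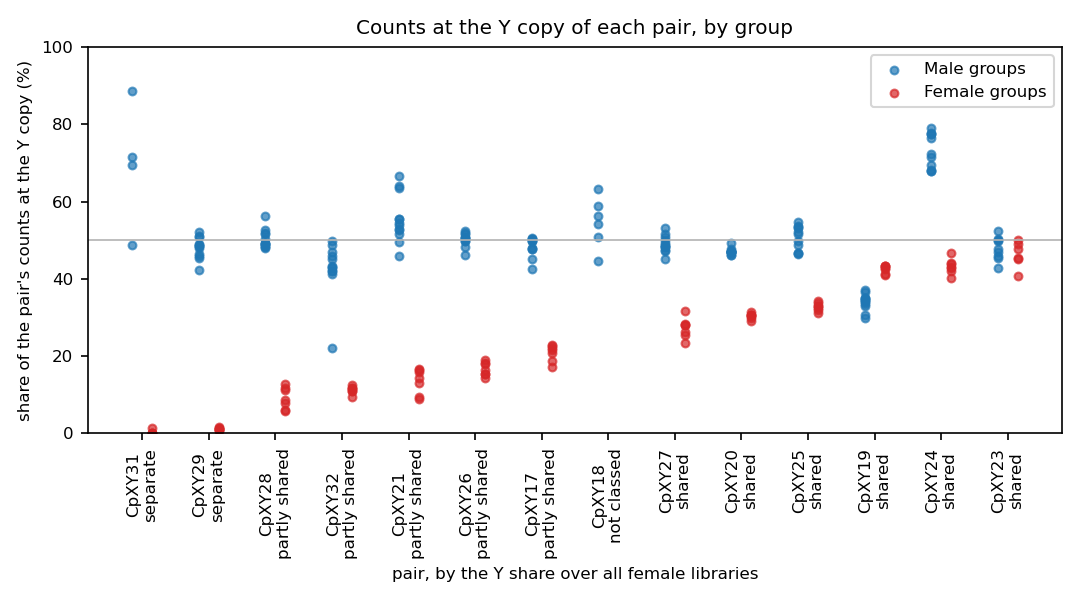
Share of each pair's counts at the Y copy (percent, mean of a group's libraries with at least 20 counts of the pair); each point is a group, blue for male and red for female groups, with pairs ordered by the Y share over all female libraries. Male points lie near 50% in most pairs, at 67.9 to 79.1% for CpXY24 and from 48.7% (buds) to 88.6% (S1 stamens) for CpXY31. For CpXY32 they are lowest in pollen, and for CpXY19 they lie at 29.8 to 37.1%, below its female points. Female points run from about 0 in CpXY31 and CpXY29 up to those of CpXY23, whose male and female points overlap. Reads counted at several copies bring the copies of shared and partly shared pairs toward equal counts.

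Levels ranged widely between pairs, on the scale of CPM per kb of exon, which allows copies of unequal length to be set side by side. In male buds the CpXY28 copies were the highest, at 13954 CPM per kb for CpXY28_MSY and 14470 for CpXY28_X. CpXY29_MSY stood at 5093, CpXY21_MSY at 1715 and CpXY31_MSY at 373 CPM per kb in the same buds. CpXY29_X had group means of 5297 CPM (pollen) to 19323 CPM (S4 pistils), whereas those of CpXY18_X ran from 0 to 8428 CPM. Buds and organs come from different folders of the authors' processing, per the file headers, so no test set one against the other. CpXY23_X had 1324, 1438 and 1414 CPM in male buds, against 1705, 447 and 3331 CPM in female buds, which surround the male values. In every organ, pollen and ovule group its mean was 308 CPM or less.

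**Figure D3:**
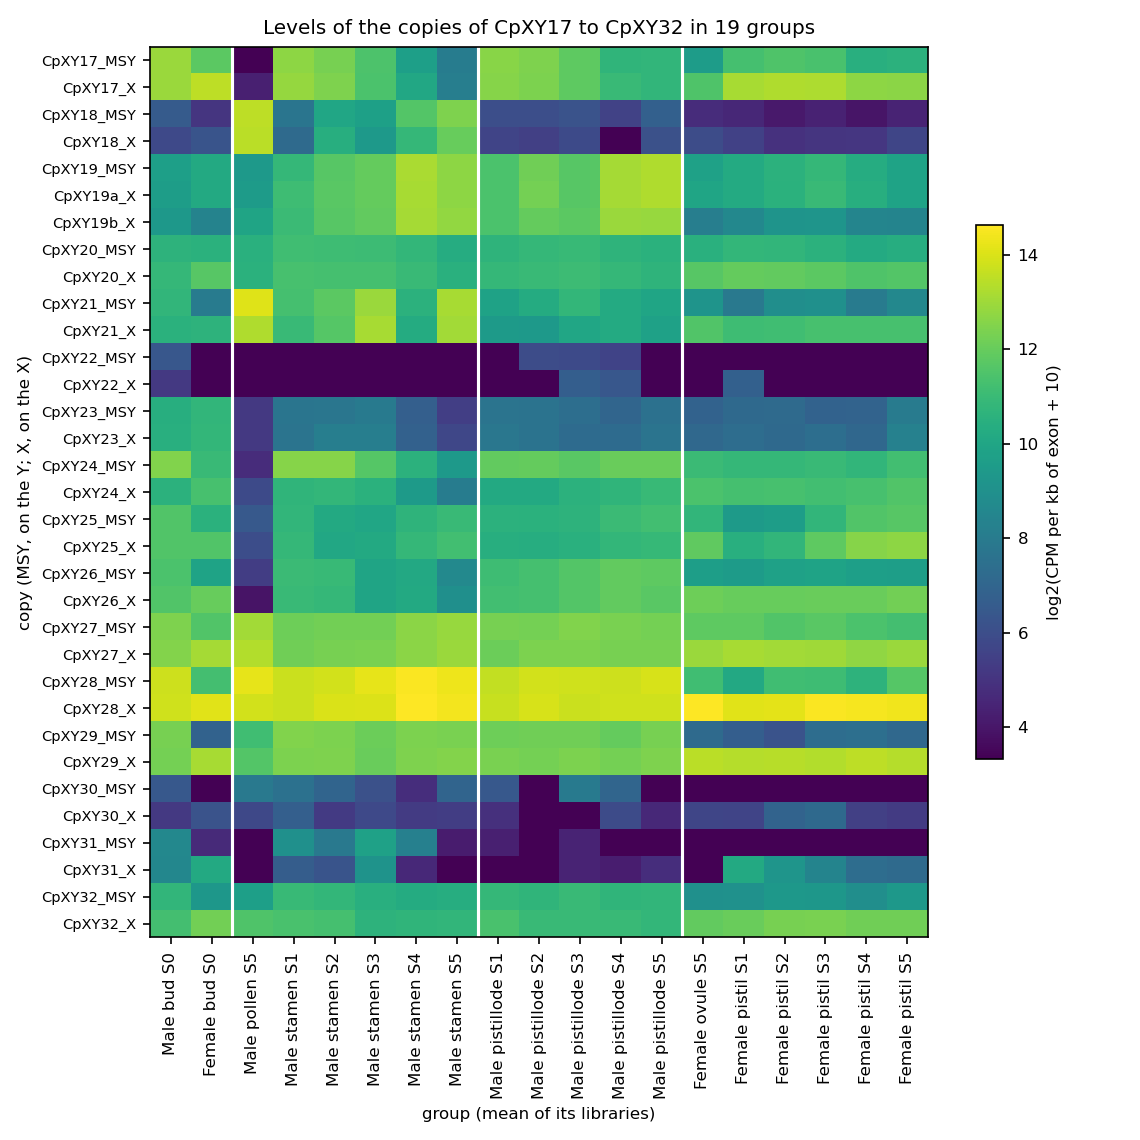
Mean level of each of the 33 copies in the 19 groups, as log2 of CPM per kb of exon plus 10; white lines part buds, male organs and pollen by kind, and female organs. Both CpXY18 copies are bright in pollen (8428 CPM for CpXY18_X before division by length) and dark outside stamens and pollen, and CpXY17, CpXY24, CpXY25 and CpXY26 are dark in pollen.

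The comparison of male with female buds shows where the pairs differed by sex before organs could be dissected. Of the 14 Y copies tested 10 were higher in male buds and none lower, and of the 15 X copies 7 were lower and none higher, while scaling on X-located features alone gave 11 Y copies and 1 X copy higher and 3 X copies lower. Among all 139 tested features 64.7% passed (37.4% higher and 27.3% lower). In the separate pair CpXY29, CpXY29_MSY had 7472, 9393 and 8941 CPM in male buds, against 129, 238 and 185 CPM in female buds. The groups lay far apart, and the log2 difference was 5.54 (SE 0.31, edgeR adjusted p = 2.07e-19). Females carry no Y, so the direction of this difference was set in advance. For the other Y copies, too, the design favoured a higher level in males, here and in pistillodes against pistils. CpXY29_X had 7559, 8479 and 8631 CPM in male buds, against 15821, 15780 and 14658 CPM in female buds, without overlap, a log2 difference of -0.91 (SE 0.15, adjusted p = 1.77e-06). The sum of both copies of CpXY29 differed by 0.06 on the log2 scale (SE 0.12, adjusted p = 0.694). Males are XY and females XX, so the number of X and Y chromosomes differs with sex, and its part in these differences was not tested. In bulk RNA, fewer cells of a type and less RNA per cell cannot be told apart.

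The median log2 difference was 1.50 over the 14 Y copies and -0.57 over the 15 X copies, against 0.08 over all features tested. The 45 tested Y copies of other pairs had a median of 1.64 and the 47 X copies -0.57. With scaling on X-located features alone, the median of all features moved to 0.62 and that of the member X copies to -0.03. Most Y copies belong to shared or partly shared pairs, so their female levels are counts at the feature and not expression from a Y.

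CpXY21_MSY had 2004, 1925 and 2172 CPM in male buds, against 201, 268 and 426 CPM in female buds, a log2 difference of 2.79 (SE 0.43, adjusted p = 3.71e-07). CpXY28_MSY differed by 2.51 (adjusted p = 1.24e-04), CpXY26_MSY by 1.57 (adjusted p = 6.21e-09) and CpXY24_MSY by 1.53 (adjusted p = 2.39e-11). Lack of overlap between the sexes was a condition for naming them. The X copies CpXY21_X, CpXY28_X and CpXY26_X did not pass, with log2 differences of -0.11, -0.30 and -0.43. CpXY31_MSY had 58 counts in 3 male buds, against 2 counts in 3 female buds, a ratio of 22.2 (95% exact counting interval 5.86 to 187).

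Among X copies, CpXY32_X had 1559, 1803 and 2080 CPM in male buds, against 3138, 3930 and 3683 CPM in female buds, a log2 difference of -0.98 (adjusted p = 1.07e-05 in edgeR). CpXY20_X differed by -0.86 (adjusted p = 6.42e-08), CpXY24_X by -0.76 (adjusted p = 6.52e-04) and CpXY17_X by -0.58 (adjusted p = 0.00367). CpXY31_X differed by -1.68 (adjusted p = 0.0241), from 56 counts in male and 140 in female buds, and lost its call in 6 of the alternatives. CpXY24_X and CpXY17_X lost theirs with scaling on X-located features, at -0.23 and -0.04.

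The counts of both copies of each pair were also summed and tested. Of 14 pair sums, 4 passed in buds, where 39.5% of the 81 sums and single features passed (25.9% higher and 13.6% lower). CpXY21 (log2 0.74, adjusted p = 0.0345) and CpXY24 (0.62, adjusted p = 1.49e-04) were higher in male buds, and CpXY20 (-0.54, adjusted p = 7.97e-05) and CpXY32 (-0.43, adjusted p = 0.0374) lower. The call of CpXY21 was lost without any of 4 single libraries (replicates 2 and 3 of the female buds, 1 and 3 of the male buds), with adjusted p-values of 0.0525 to 0.0856. That of CpXY32 was lost without any of 4 (replicates 2 and 3 of the female buds, 1 and 2 of the male buds), at 0.0935 to 0.201, and with every feature kept, at 0.0784. A total of 2 pair sums passed without replicate 3 of the female buds or without replicate 1 of the male buds. A sum counts reads that map to both copies at each of them, so in shared pairs it is no measure of total expression.

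The pistillode of males was set against the pistil of females, as a mean over S1 to S5, to compare the aborted organ with the working one. Pistillodes are XY and pistils XX, so the state of the organ cannot be told apart here from the sex chromosomes. Here 24 of 29 members passed (82.7% of all features passed, 46% higher and 36.7% lower): 13 of 15 X copies, 2 higher and 11 lower, and 11 of 14 Y copies, all higher. The median log2 difference was -0.82 over the X copies and 1.31 over the Y copies (1.61 without CpXY31_MSY, which had 2 counts in pistillodes and 0 in pistils), against 0.19 over all features tested. Scaling on X-located features moved the median of all features to 0.78 and the split to 15 higher and 8 lower, in place of 13 and 11. By single stages 22, 20, 20, 21 and 21 members passed at S1, S2, S3, S4 and S5, where 72.7, 66.2, 67.6, 71.2 and 74.1% of all features passed.

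The 2 X copies that were higher in pistillodes were those of CpXY19. CpXY19b_X had 4962, 7132 and 4380 CPM in S5 pistillodes, against 349, 121 and 262 CPM in S5 pistils, and CpXY19a_X had 7771, 11021 and 5500 CPM against 964, 747 and 606 CPM. The organs did not overlap for either copy at S5, nor for CpXY19b_X at any of the 5 stages. Over all stages CpXY19b_X differed by 3.45 (SE 0.21, adjusted p = 5.44e-19), CpXY19a_X by 1.95 (SE 0.17, adjusted p = 1.25e-13) and CpXY19_MSY by 1.96 (SE 0.17, adjusted p = 4.57e-14). The sum of the 3 copies differed by 2.21 (adjusted p = 1.32e-14). Stamens were as high as pistillodes, and no CpXY19 copy passed between these organs over S1 to S5. By stage, the summed copies had means of 4796 to 21433 CPM in stamens and 6420 to 21392 CPM in pistillodes, against 1759 to 3532 CPM in pistils. In this shared pair, reads counted at several copies make the 3 values not independent of each other. In male and female buds the 3 copies did not differ past the threshold, with log2 differences of 0.98 for CpXY19b_X, -0.57 for CpXY19a_X and -0.48 for CpXY19_MSY.

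CpXY31 was nearly absent from pistillodes. CpXY31_X had 953, 574 and 620 CPM in S1 pistils, against 0 counts in all 3 S1 pistillodes, so that it was at least 42.2-fold lower there (a floor of 3 counts for the whole group). Over S1 to S5 it had 3 counts in 13 pistillode libraries, against 285 in 15 pistil libraries, a ratio of 0.0152 (95% exact counting interval 0.00311 to 0.0448). Within pistils it fell with stage, from 715 ± 207 CPM at S1 through 358 ± 186, 207 ± 88.7 and 95.7 ± 39.5 CPM to 86.8 ± 31.9 CPM at S5 (SD, n = 3 each).

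The copies of the separate pair CpXY29 differed in the same directions as in buds, again between XY males and XX females. CpXY29_MSY averaged 7694 CPM over the pistillode stages and 206 CPM over the pistil stages, a log2 difference of 5.32 (SE 0.14, adjusted p = 4.26e-32). CpXY29_X averaged 8726 CPM in pistillodes and 18096 CPM in pistils, a difference of -1.05 (SE 0.07, adjusted p = 5.38e-17). CpXY28_MSY differed by 2.88 (adjusted p = 2.04e-13) and CpXY26_MSY by 1.86 (adjusted p = 1.03e-21), with no overlap between the organs at any of the 5 stages. Only males carry a Y, so the design favoured this direction for the Y copies. Among X copies CpXY21_X differed by -1.49 (adjusted p = 2.20e-11), CpXY17_X by -1.28 (adjusted p = 1.63e-17), CpXY32_X by -1.17 (adjusted p = 9.18e-16) and CpXY25_X by -1.05 (adjusted p = 6.14e-07). The size of these differences depended on the scaling. On X-located features alone CpXY29_X stood at -0.46, CpXY21_X at -0.90, CpXY17_X at -0.69, CpXY32_X at -0.58 and CpXY25_X at -0.47, all still called. With the same scaling CpXY28_MSY stood at 3.47 and CpXY26_MSY at 2.45.

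**Figure D4:**
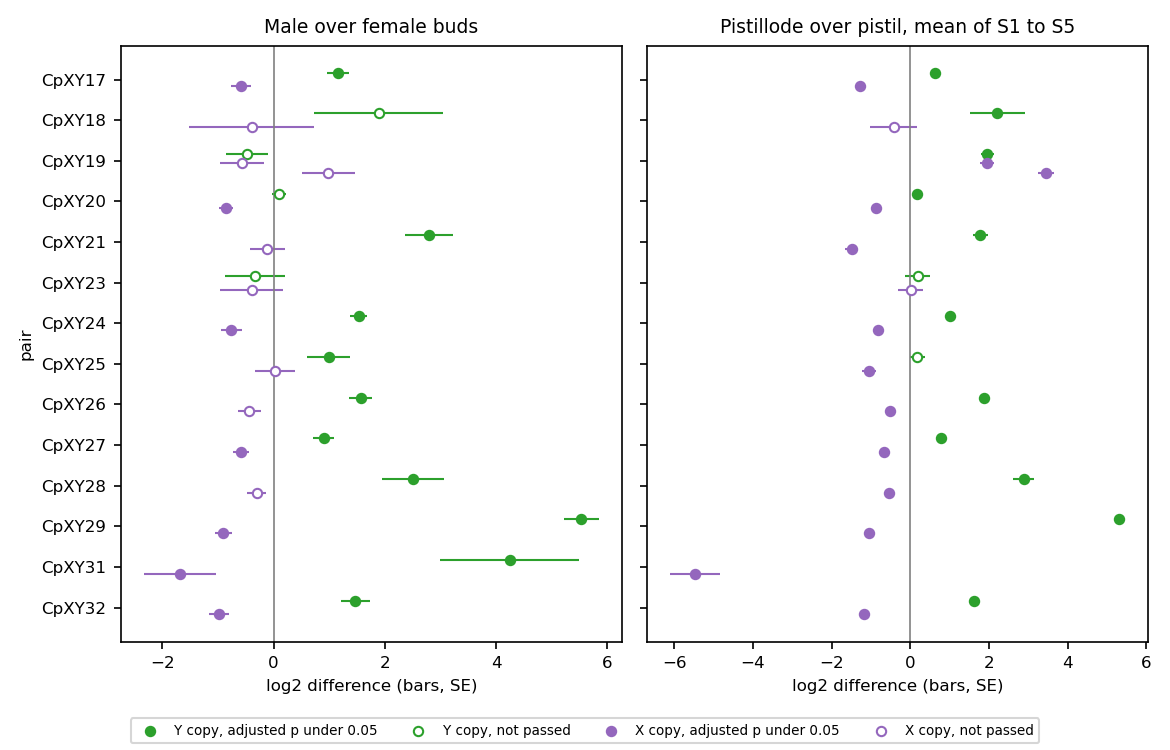
Log2 differences of Y copies (green, upper point of each pair) and X copies (purple, lower) with their standard errors, for male over female buds and for pistillode over pistil; filled points passed an adjusted p of 0.05 in edgeR, and in CpXY19 the upper purple point is CpXY19a_X. CpXY31_MSY, with 2 counts in pistillodes and 0 in pistils, is left out of the right panel. Both panels set XY males against XX females. Green points lie right of 0 and purple points left of it in most pairs, and CpXY19 stands out on the right, with its X copies at 1.95 and 3.45.

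Pair sums of pistillodes and pistils passed in 12 of 14 pairs (69.1% of all sums and single features, 38.3% higher and 30.9% lower). CpXY19 (2.21), CpXY28 (0.28), CpXY24 (0.21) and CpXY26 (0.20) were higher in pistillodes, and 8 pairs were lower. The call of CpXY26 was lost with table totals (adjusted p = 0.0713) and without replicate 1 of the S1 or of the S3 pistillodes (0.0651 and 0.142). The lower pairs with the largest differences were CpXY31 (-4.93, from 5 counts in pistillodes), CpXY17 (-0.68), CpXY25 (-0.57) and CpXY20 (-0.51), with adjusted p-values of 8.61e-09, 5.51e-10, 0.00458 and 1.39e-11. CpXY29, whose copies can be told apart, differed by -0.20 (SE 0.06, adjusted p = 0.00174).

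Stamens were set against pistillodes within male flowers, so both organs carry an X and a Y. Over S1 to S5, 15 of 29 members passed (51.1% of all features, 16.5% higher and 34.5% lower), with 9 higher and 6 lower in stamens. Both copies of CpXY18, CpXY20 and CpXY21 were higher, and both copies of CpXY17, CpXY24 and CpXY26 lower. These pairs are shared or partly shared, apart from CpXY18, which is not classed, and reads counted at both copies make their values not independent of each other. A single copy passed in CpXY27 (CpXY27_X), CpXY28 (CpXY28_X) and CpXY31 (CpXY31_MSY). In CpXY29, whose copies can be told apart, neither passed, with 0.03 for CpXY29_X and 0.19 for CpXY29_MSY. The median log2 difference was 0.03 over the members and -0.14 over all features tested. Scaling by table totals moved the median over all features to -0.25 and the split to 6 higher and 7 lower, in place of 9 and 6. By single stages 6, 5, 8, 11 and 15 members passed at S1, S2, S3, S4 and S5 (10.1, 9.35, 28.8, 43.9 and 56.8% of all features). All 6 at S1 and all 5 at S2 were higher in stamens, where 5.76% and 5.04% of all features were higher. Pistillode libraries enter this comparison and the one with pistils.

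CpXY18 was expressed in stamens and pollen. CpXY18_X had 252 counts in 3 S2 stamens, against 3 counts in 2 S2 pistillodes, a ratio of 38.8 (95% exact counting interval 13.1 to 189). The S2 stamen libraries were unlike, with 130, 116 and 6 of these counts, or 1874, 1024 and 75.8 CPM, and the interval does not cover that spread. At S4 it had 284 counts in stamens, against 0 in pistillodes, at least 63.9-fold higher. CpXY18_MSY had 474 counts in S4 stamens, against 3 in S4 pistillodes, a ratio of 107 (interval 36.3 to 519). Over the stages CpXY18_X differed by 5.42 (SE 0.54, adjusted p = 2.35e-11) and CpXY18_MSY by 4.44 (SE 0.41, adjusted p = 1.99e-12). CpXY18_X stood at 6.27 without replicate 1 of the S2 pistillodes and at 6.21 without replicate 3 of the S5 pistillodes. In pistils, ovules and female buds together the pair had 55 counts in 21 libraries.

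CpXY21 was high in stamens at S3 and S5 and low between them. From S1 to S5 CpXY21_X stood at 2417 ± 189, 3775 ± 1268, 10828 ± 1499, 1469 ± 347 and 10247 ± 6916 CPM (SD, n = 3 each). CpXY21_MSY followed with 2996, 4144, 9145, 1787 and 10591 CPM in the mean. In pistillodes CpXY21_X stayed between 794 and 1410 CPM in the mean of each stage. Its difference between stamens and pistillodes was 2.07 (SE 0.16, adjusted p = 1.71e-14), and that of CpXY21_MSY 1.71 (SE 0.18, adjusted p = 1.14e-10).

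CpXY26 and CpXY24 were lower in late stamens. CpXY26_MSY had 960, 806 and 1508 CPM in S5 stamens, against 10748, 10402 and 8793 CPM in S5 pistillodes, and its difference over the stages was -1.42 (SE 0.09, adjusted p = 1.30e-16), with -1.37 for CpXY26_X (adjusted p = 2.99e-15). CpXY24_MSY was higher in stamens at S1 (log2 0.65, adjusted p = 0.00335) and lower at S5 (-2.60, adjusted p = 4.76e-17). Its mean over the stages was -0.59 (adjusted p = 4.28e-09), and over S1 to S4 alone -0.08 (adjusted p = 0.464), with -0.04 for CpXY24_X (adjusted p = 0.833). CpXY17_MSY differed by -0.83 (adjusted p = 2.15e-09) and CpXY17_X by -0.73 (adjusted p = 1.34e-09). CpXY28_X was higher in stamens by 0.35 (adjusted p = 3.21e-04), without overlap at 2 of the 5 stages.

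CpXY31 had counts in stamens and next to none in pistillodes. CpXY31_MSY had 264 counts in 15 stamen libraries, against 2 counts in 13 pistillode libraries, a ratio of 86.4 (95% exact counting interval 23.7 to 717). From S1 to S5 the stamens held 74, 37, 115, 37 and 1 of these counts. The 3 libraries of S3 differed widely, at 1367, 0 and 263 CPM, and CpXY31_X had 925, 15.3 and 69.2 CPM in the same libraries. The fitted log2 difference of CpXY31_MSY, 5.16 (SE 1.42, adjusted p = 0.00385), lost its call without replicate 1 of the S5 stamens, which held the single S5 count (4.79, adjusted p = 1.00). That fit had no S5 count in either organ and was numerically unstable, with an SE of 16662. Over S1 to S4 alone the difference was 5.99 (edgeR adjusted p = 5.69e-06).

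Change with development was measured in each organ as S5 over S1. In stamens 24 of 29 members passed, 10 higher and 14 lower (65.5% of all features, 27.3% higher and 38.1% lower). In pistillodes 8 passed, 5 higher and 3 lower (18.7%, with 10.1% higher and 8.63% lower), and in pistils 6 passed, 2 higher and 4 lower (13.7%, with 4.32% higher and 9.35% lower). The median over the members was -0.15 in stamens, 0.18 in pistillodes and 0.12 in pistils, against -0.15, -0.01 and 0.00 over all features tested. Scaling by table totals moved the stamen median of all features to -0.78, with 7 members higher and 16 lower, and the pistillode median to -0.27, with 3 higher and 5 lower. Scaling on X-located features moved the stamen median to 0.11, and scaling on pair sums gave 6 members higher and 2 lower in pistillodes.

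In stamens CpXY17, CpXY24 and CpXY31 fell. CpXY17_X had 350, 310 and 463 CPM at S5, against 12057, 9184 and 7869 CPM at S1, a log2 difference of -4.68 (SE 0.22, adjusted p = 4.38e-22), and CpXY17_MSY differed by -4.67 (SE 0.25, adjusted p = 8.10e-20). CpXY24_MSY fell by 3.12 on the log2 scale (adjusted p = 6.34e-20) and CpXY24_X by 2.72 (adjusted p = 1.55e-14). CpXY23_MSY had 7 counts at S5, against 46 at S1, a difference of -2.50 (adjusted p = 0.00473), and lost its call without replicate 3 of the S1 stamens (-1.80, adjusted p = 0.0650). CpXY31_MSY had 1 count at S5 and 74 at S1, a ratio of 0.0154 (95% exact counting interval 3.85e-04 to 0.0886).

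Copies of 3 pairs rose strongly in stamens. CpXY18_X differed by 4.85 (SE 0.79, adjusted p = 1.13e-06) and CpXY18_MSY by 4.83 (SE 0.70, adjusted p = 8.07e-08). CpXY21_X differed by 2.08 (adjusted p = 2.72e-07) and CpXY21_MSY by 1.82 (adjusted p = 3.54e-05). CpXY19_MSY differed by 1.84 (adjusted p = 1.81e-05), CpXY19b_X by 1.77 (adjusted p = 1.77e-04) and CpXY19a_X by 1.62 (adjusted p = 1.46e-04). Single libraries moved several of these values without ending a call. CpXY18_X stood at 4.24 and CpXY21_X at 1.43 without replicate 2 of the S5 stamens, and CpXY18_X at 5.45 without replicate 2 of the S1 stamens. Without replicate 3 of the S5 stamens CpXY19b_X stood at 0.93 (adjusted p = 0.0310) and CpXY19_MSY at 0.96 (adjusted p = 0.00835).

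The S5 stamens were not alike. CpXY21_X had 9156, 17644 and 3942 CPM and CpXY18_X 2849, 5143 and 1138 CPM in replicates 1, 2 and 3. CpXY19a_X ran the other way, with 2635, 3129 and 10690 CPM in the same libraries. CpY17_MSY, a Y feature without an X copy that took 29.9 to 35.2% of pollen counts, had 133130, 184263 and 29965 CPM there, against 1496 to 2200 CPM in S4 stamens. Replicate 3 was thus the lowest of the 3 for CpY17_MSY, CpXY18 and CpXY21 and the highest for CpXY19, and the part of CpY17_MSY's spread in the results on these pairs was not tested.

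In pistillodes CpXY17 fell and CpXY19 rose. CpXY17_MSY differed by -1.86 (adjusted p = 6.09e-09) and CpXY17_X by -1.82 (adjusted p = 3.52e-10), and CpXY32_X by -0.56 (adjusted p = 0.0272). CpXY19a_X differed by 1.87 (adjusted p = 1.17e-04), CpXY19_MSY by 1.84 (adjusted p = 1.03e-04) and CpXY19b_X by 1.46 (adjusted p = 0.00662). CpXY24_X (0.75, adjusted p = 0.00400) and CpXY26_MSY (0.70, adjusted p = 0.00742) were also higher at S5. One S5 pistillode library stood apart in another feature, with 28.2% of its counts at PCpY4_MSY against at most 11.1% in the other male organ libraries. Without it, in replicate 3, the call of CpXY32_X was lost (-0.42, adjusted p = 0.157), as it was without replicate 2 of S1 or of S5 and under 3 other settings. The call of CpXY19b_X was lost without replicate 3 of the S1 pistillodes (adjusted p = 0.0539) and without replicate 2 of the S5 pistillodes (0.0517). Those of CpXY24_X and CpXY26_MSY were lost with table totals (adjusted p = 0.0569 and 0.0610).

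In pistils CpXY25 rose and CpXY31_X fell. CpXY25_X had 1678, 7048 and 2191 CPM at S5, against 542, 1116 and 604 CPM at S1, a log2 difference of 2.27 (SE 0.37, adjusted p = 4.35e-05), and CpXY25_MSY differed by 2.19 (SE 0.41, adjusted p = 2.09e-04). The stages did not overlap, and replicate 2 was the highest library of its stage at both. Without replicate 2 of the S5 pistils CpXY25_X differed by 1.35 (adjusted p = 0.00744) and CpXY25_MSY by 1.22 (adjusted p = 0.0369). Both calls were lost with only the groups compared in the fit (adjusted p = 0.0527 and 0.0676). CpXY31_X differed by -3.05 (adjusted p = 0.00592), CpXY17_MSY by -0.69 (adjusted p = 0.0244) and CpXY20_MSY by -0.44 (adjusted p = 0.0150). Without replicate 1 of the S5 pistils 3 members passed in place of 6, and CpXY17_MSY (-0.46) and CpXY20_MSY (-0.36) were not among them. CpXY17_MSY also lost its call without any of 3 other pistil libraries (adjusted p = 0.0503 to 0.176) and with only the groups compared (0.0777), and CpXY20_MSY with a minimum of 20 counts in 3 libraries (0.0588).

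**Figure D5:**
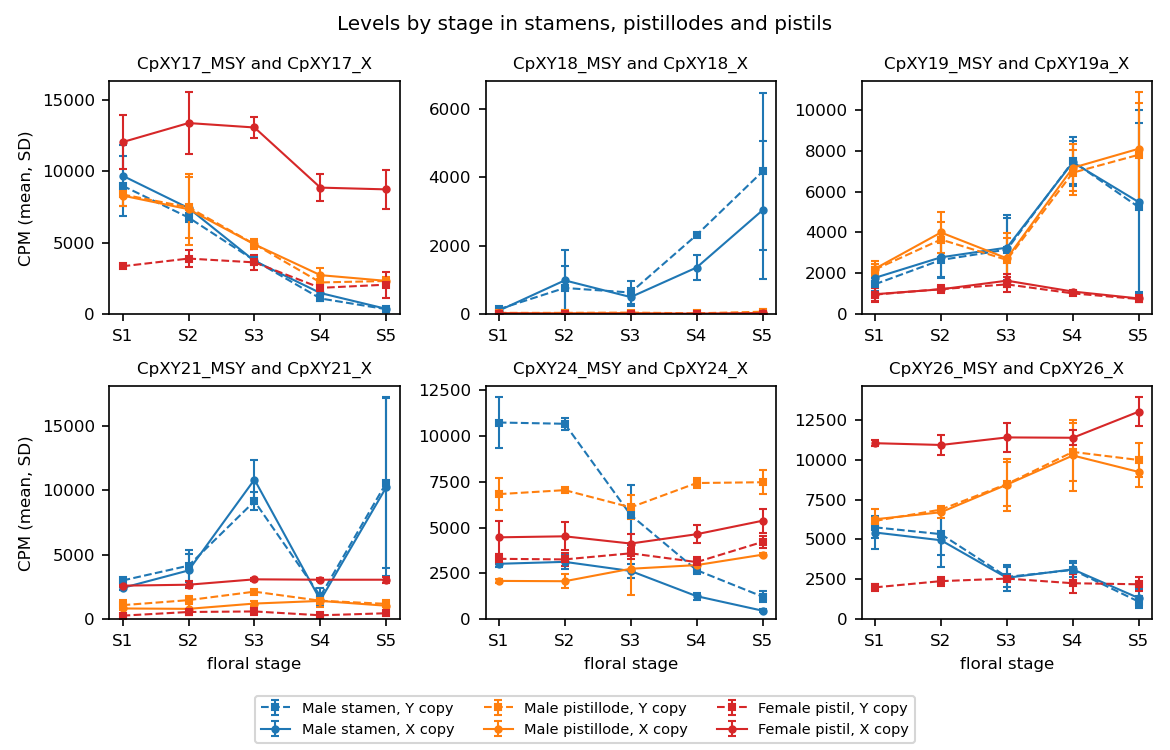
Mean level (CPM, bars SD) from S1 to S5 of the Y copy (dashed, squares) and an X copy (solid, circles) of 6 pairs, in stamens (blue), pistillodes (orange) and pistils (red). Copies of a pair run close together in male organs except CpXY24 and, in late stamens, CpXY18. In S4 stamens CpXY18_MSY had 2265 to 2370 CPM, against 981 to 1677 CPM for CpXY18_X. None of the 6 pairs is classed separate, and reads counted at several copies draw the curves of shared and partly shared pairs together. CpXY17 falls in stamens to 374 CPM at S5 for the X copy, and the wide bars of S5 stamens in CpXY18, CpXY19 and CpXY21 come from 3 unlike libraries.

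The changes themselves were compared between organs. The change in stamens differed from that in pistillodes for 14 members, 6 in the positive and 8 in the negative direction (47.5% of all features, 16.5% positive and 30.9% negative). Scaling by table totals gave 4 and 10, with the median of all features at -0.45 in place of -0.06. By difference of the log2 changes, CpXY18_X (4.96, SE 1.79, adjusted p = 0.0200), CpXY18_MSY (4.19, SE 1.38, adjusted p = 0.0106) and CpXY21_X (1.76, SE 0.47, adjusted p = 0.00171) rose more in stamens. CpXY24_X (-3.47, adjusted p = 1.87e-13), CpXY24_MSY (-3.26, adjusted p = 6.79e-16) and CpXY26_MSY (-3.09, adjusted p = 3.23e-12) fell in stamens relative to pistillodes. Both CpXY18 calls were lost without replicate 1 of the S1 pistillodes (adjusted p = 0.146 and 0.102). Leaving out 1 library at a time moved CpXY18_X to between 4.34 (without replicate 2 of the S5 stamens) and 8.85 (without replicate 3 of the S5 pistillodes) and CpXY18_MSY up to 4.98 (without replicate 1 of the S5 pistillodes). CpXY21_X stood at 1.11 (adjusted p = 0.0322) without replicate 2 of the S5 stamens.

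The change in pistillodes differed from that in pistils for 6 members, 2 positive and 4 negative (17.3% of all features, 7.19% positive and 10.1% negative). CpXY19a_X (2.21, SE 0.53, adjusted p = 0.00416) and CpXY19_MSY (2.21, SE 0.52, adjusted p = 0.00386) rose more in pistillodes. CpXY17_X fell more there (-1.36, SE 0.25, adjusted p = 2.24e-04). CpXY25_X (-1.76, adjusted p = 0.0168) and CpXY25_MSY (-1.57, adjusted p = 0.0447) changed less in pistillodes than in pistils. Without replicate 2 of the S5 pistils the count was 3, and CpXY25_X stood at -0.84 (adjusted p = 0.234) and CpXY25_MSY at -0.59 (adjusted p = 0.498). CpXY25_X also lost its call without replicate 1 of the S1 pistils (0.0521) and with only the groups compared (0.111), and CpXY25_MSY lost its call in 8 further alternatives (adjusted p up to 0.163).

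Ovules were set against pistils of the same stage, S5. Of 29 members 4 passed (8.63% of all features, 5.04% higher and 3.6% lower), 1 higher and 3 lower in ovules. CpXY17_X had 3830, 3276 and 4694 CPM in ovules, against 8025, 10330 and 7883 CPM in pistils, without overlap, a log2 difference of -1.15 (SE 0.18, adjusted p = 6.75e-06). CpXY17_MSY differed by -1.03 (adjusted p = 0.00101), and by -0.60 (adjusted p = 0.127) without replicate 2 of the S5 pistils; with only the groups compared its adjusted p was 0.0522. CpXY27_MSY had 7463, 7054 and 7831 CPM in ovules, against 4419, 4110 and 6160 CPM in pistils, a difference of 0.61 (adjusted p = 0.0335). CpXY31_X had 0 counts in ovules and 19 in pistils, at least 6.45-fold lower. Without replicate 2 of the S5 pistils, or without replicate 3 of the ovules, 2 members passed, and CpXY27_MSY lost its call in both cases (0.49 and 0.57), as it did without replicate 1 of the pistils or of the ovules (0.64 and 0.60). With scaling by the median of ratios 3 members were lower and none higher.

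Pollen was set against the S5 stamens that bear it. Of 29 members 19 passed (71.9% of all features, 25.2% higher and 46.8% lower), 4 higher and 15 lower in pollen. The median log2 difference was -0.69 over the members and -0.57 over all features tested. With scaling by the median of ratios the median of all features was -0.18, and with table totals -0.32; both gave 8 members higher and 13 lower. S5 stamen libraries enter this comparison and those by organ and stage.

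In pollen 8 of the 16 pairs had 0 to 6 counts at each copy. In S5 stamens the copies of CpXY22, CpXY23, CpXY30 and CpXY31 also had only 0 to 9 counts, whereas those of CpXY17, CpXY24, CpXY25 and CpXY26 had 72 to 277. CpXY17_MSY had 0 counts in pollen and 72 in S5 stamens, at least 8.08-fold lower, and CpXY17_X had 1 count against 78. CpXY26_X had 1 count in 3 pollen libraries, against 277 in S5 stamens, a ratio of 0.0107 (95% exact counting interval 2.71e-04 to 0.0602). CpXY25_X had 2 counts against 260 (ratio 0.0229, interval 0.00275 to 0.0834), CpXY25_MSY 3 against 227 (ratio 0.0393), and CpXY24_MSY 2 against 256 (ratio 0.0232). The other copies of these pairs, CpXY24_X and CpXY26_MSY, had 6 counts each in pollen and were lower by -2.38 (adjusted p = 8.94e-07) and -3.63 (adjusted p = 1.12e-11) on the log2 scale.

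CpXY18 reached its highest levels in pollen. CpXY18_X had 8397, 9294 and 7594 CPM in pollen, against 2849, 5143 and 1138 CPM in S5 stamens, without overlap, a log2 difference of 1.47 (SE 0.64, adjusted p = 0.0383). CpXY18_MSY had 8825, 9153 and 8081 CPM in pollen, against 4418, 6351 and 1760 CPM in S5 stamens, and did not pass. The call of CpXY18_X was lost without any of 4 single libraries, with adjusted p-values of 0.0597 to 0.165, and with every feature kept (0.0538), and its difference was 2.08 without replicate 2 of the S5 stamens. CpXY32_X was higher, with 2356, 2159 and 2031 CPM in pollen, against 1402, 1363 and 1138 CPM in S5 stamens, a difference of 0.75 (adjusted p = 7.36e-04 in edgeR). That call was lost with only the groups compared in the fit (adjusted p = 0.0561).

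Limma on the log2 ratio of Y to X counts compared the balance of the copies between male organs. Between stamens and pistillodes 1 of 11 pairs passed (16.7% of all 48 pairs tested, 2.08% higher and 14.6% lower), namely CpXY25, with a lower ratio in stamens (-0.31, SE 0.09, adjusted p = 0.0108). Its Y copy took 46.4 to 51.5% of counts in the means of the stamen stages, against 52.0 to 54.7% in those of the pistillode stages. CpXY25 is a shared pair, so its ratio also holds reads counted at both copies. CpXY29, whose copies can be told apart, differed by 0.16 (SE 0.07, adjusted p = 0.0944). Without replicate 1 of the S3 pistillodes CpXY25 stood at -0.26 (adjusted p = 0.0556) and no pair passed.

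Between pollen and S5 stamens 3 of 8 pairs passed (41.7% of all 36, 19.4% higher and 22.2% lower). CpXY32 had 19.3 to 25.4% of its counts at the Y copy in pollen, against 38.9 to 48.8% in S5 stamens, and its log2 ratio differed by -1.41 (SE 0.22, limma adjusted p = 6.51e-06). CpXY21 had 63.4 ± 1.58% in pollen, against 51.5 ± 1.63% in S5 stamens (SD, n = 3 each), a limma difference of 0.71 (SE 0.28, adjusted p = 0.0432), and CpXY28 differed by 0.42 (SE 0.12, adjusted p = 0.00489). None of the 3 overlapped between pollen and stamens, which was a condition for naming them. The call of CpXY21 was lost without any 1 of the 6 libraries (adjusted p of 0.0586 or more) and with the replicate block (0.0531), and that of CpXY28 without replicate 1 of the S5 stamens (0.32, adjusted p = 0.0517). In CpXY29, whose copies can be told apart, the Y copy took 38.2 to 46.2% of counts in pollen, against 42.5 to 54.0% in S5 stamens, with overlap, and its ratio differed by -0.32 (SE 0.14, adjusted p = 0.0675). All 3 that passed are partly shared pairs, whose ratios also hold reads counted at both copies.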

How the data were processed

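One table of exon counts by gene name was deposited for each library. Per the file headers, featureCounts 2.0.0 counted read pairs without regard to strand, and a read with several map positions was counted at every one. The submitters' processing notes name HISAT2 2.0.5, Trimmomatic 0.36, SAMtools 1.3.1, FastQC 0.11.5 and, unlike the headers, featureCounts 1.5.2. No source used here names the genome build. The tables hold only sex-linked features, so scaling rests on these. Without strand, reads of features on opposite strands that overlap could not be told apart, but no exons of the members overlap.

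After filterByExpr, which kept 139 of 193 features, edgeR 4.0.16 (R 4.3.3) fitted all 55 libraries and 19 groups together by quasi-likelihood, with TMM scaling and prior count 0.125. P-values are two-sided, adjusted by Benjamini-Hochberg over all features tested, with a threshold of 0.05. Pair sums were fitted likewise, in place of the copies. Log2 ratios of Y to X counts (pseudocount 0.5) in male libraries were fitted with limma 3.58.1, for pairs with at least 20 counts per library of the groups compared. Fold bounds set 3 counts over the group at 0, and ratios with 1 to 3 counts carry exact binomial counting intervals. Scripts were tested on simulated data.

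Per comparison, up to 6 members in each direction are named (3 for differences between organs, 4 pairs for sums and ratios), by size of change, among those past the threshold with a mean of at least 10 counts in the higher group and no overlap of libraries in at least 1 stage; for differences, S5 and S1 had to be apart in at least 1 organ. The other copy of a named member, and levels by library, stage or group, are given beside them; single values outside this rule (CpXY29 sums and ratios, CpXY23 buds, CpXY24 at S1 and S5, CpXY31_X in ovules and stamens) were chosen after being seen. The members, lists and tests were chosen with earlier results of these data known. Alternatives were other size factors, DESeq2 1.42.0, other filters, thresholds and pseudocounts, fits on the groups compared, a replicate block, single libraries left out and, added after seeing the data, S1 to S4 alone. The replicates were compared in 53 pairs, and none were identical. None of the names matched the 48816 genes of the reference table, and no sequences were used here. Figures used matplotlib 3.10.9.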

Additional observations from a re-analysis of the deposited data

Results flagged for a closer look

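The change from S1 to S5 differed between organs, by the test of the difference in edgeR, for 11 named copies. Between stamens and pistillodes the log2 changes differed by 4.96 for CpXY18_X, 4.19 for CpXY18_MSY and 1.76 for CpXY21_X, and by -3.47 for CpXY24_X, -3.26 for CpXY24_MSY and -3.09 for CpXY26_MSY. CpXY26_X differed by -2.60, CpXY17_X by -2.86 and CpXY17_MSY by -2.81, and these pairs are partly shared. Between pistillodes and pistils they differed by 2.21 for CpXY19a_X, 2.21 for CpXY19_MSY, -1.36 for CpXY17_X, -1.76 for CpXY25_X and -1.57 for CpXY25_MSY. Values of CpXY18 in pistillodes are 0 to 10 counts per group, and neither CpXY25 copy passed without replicate 2 of the S5 pistils.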

How the results depend on the processing

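None of the 99 named values changed sign under an alternative, but scaling turned some medians and splits given above, with 3 members higher and 5 lower with table totals, in place of 5 and 3, for change in pistillodes. Of 303 counts of members or pairs under alternatives, 288 stayed within 1.5 times the value reported. With at least 50 counts per pair, no pair passed for the ratio between stamens and pistillodes (limma; 3 pairs of 11 had an unadjusted p under 0.05 in the fit reported). With separate pairs alone, 1 pair, CpXY29, passed for the ratio between pollen and stamens, with a lower ratio in pollen, and CpXY29 was also the 1 member pair to pass between stamens and pistillodes, with a higher ratio in stamens. Leaving out 1 library gave 15 to 17 members in buds, 22 to 25 for pistillode over pistil, 14 to 18 for stamen over pistillode, 2 to 5 for ovule over pistil and 15 to 21 for pollen over stamen. It gave 3 to 7 for change in pistils, 6 to 9 in pistillodes, 20 to 23 in stamens, 12 to 16 for the difference of stamens from pistillodes and 3 to 8 for that of pistillodes from pistils. Pair sums gave 2 to 4 in buds and 11 to 13 in pistillodes, and ratios 0 to 3 for stamens and 1 to 3 for pollen.

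Over S1 to S4 alone, 13 members passed for stamen over pistillode and 24 for pistillode over pistil. Of 99 named values, 29 lost their call under at least 1 alternative, with 52 losses when a library was left out and 28 under other settings. Values moved by over 1.5 times in 29 cases when a library was left out, 10 with scaling on X-located features, 11 with table totals and 2 under other settings. Replicate numbers showed no clear pairing of samples: correlations of same-numbered deviations were -0.33 to 0.21, and 14 of 72 samples correlated best with their own number. Whether libraries of the same number share plants is not in the labels, and weak correlations cannot exclude it. With the replicate block 2 pairs in place of 3 passed for the ratio between pollen and stamens (CpXY21, adjusted p = 0.0531), and no other count of calls changed. Totals of 27741 to 28555 counts limit pollen, where several members had 0 to 6 counts over the group.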
